A study of Mus musculus with 8 samples.

Results

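A stack of reads on mouse chromosome 2 is described here: all CpG calls between 98660001 and 98670000 (GRCm38, 1-based) in 8 libraries of embryonic stem cells. The calls were taken by chromosome and position, but the window itself was chosen on values of these libraries. There were 11825 calls on 2803 reads, out of 1849087 calls on 832996 reads in all, which makes 0.640% of the calls in 1 of 217507 windows of 10 kb that held a call. The cells lack TET1, TET2 and TET3, the enzymes that oxidise 5-methylcytosine to 5-hydroxymethylcytosine (5hmC), in every group. In all groups the line also carries a PiggyBAC transposon with a doxycycline-inducible mouse TET3 catalytic domain, not the whole protein, and an mCherry reporter, and was kept with 50 µg/ml ascorbate. The groups were untreated cells (0 h, libraries A, B and C), cells given 1 µM doxycycline for 6 h (A and B) and cells given it for 12 h (A, B and C). Whether the libraries of a group came from separate cultures is not stated, so p-values may measure technical spread only. In APOBEC-coupled epigenetic sequencing a glucose shields 5hmC while other cytosines are deaminated, so the level given here is the percentage of CpG calls left undeaminated, which is 5hmC plus assay background.

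Satellite DNA consists of short units repeated in tandem and makes up the heterochromatin next to mouse centromeres, where its CpGs are normally methylated. Methylated CpGs are the substrate that TET enzymes oxidise. Short stretches that resemble satellite units also lie inside the assembled chromosome arms, and reads from the many copies that an assembly leaves out can align to them. Whether the reads here came from other copies was not tested. The window was chosen on values of these libraries, its number of calls and its level among them. Its level over time and against the rest of the libraries is therefore a description without a test.

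The stack had sharp limits. The 10 kb window before it held 2 calls and the one after it 1 call in the 8 libraries together. Within it, 130 cytosine positions were called, 61 on the top strand, 68 on the bottom strand and 1 whose strand could not be read. Paired by neighbouring bases they made 71 CpGs, and 58 of these were called on both strands. The count of 71 is an upper one. The pairs 98666917/98666918 and 98667168/98667169, with few calls, each share a base with a deeper CpG, which CpGs cannot do. The calls lay in 4 stretches with more than 500 bases between them. The last stretch (98666262 to 98667326) held 39 CpGs and 83.6% of the calls, and the first (98662264 to 98662943) held 22 CpGs and 13.5%. The stretches between them (98663907 to 98664039 and 98664999 to 98665193) held 0.736% and 2.15%. The median position had 31 calls and the deepest 606, where a called position outside the window had 1.05 on average.

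The label of satellite-like DNA could be checked here only by the spacing of CpGs. Among distances from 20 to 1000 bases, 234 and 251 bases each separated 10 pairs of the 71 CpGs, 88 bases and 485 bases 9 pairs each, and the median distance 1 pair. The distance of 485 bases is the sum of the 2 most frequent ones. As background, 234 bases is the length of the repeat unit of mouse major satellite DNA. Of the genes in the table of GRCm38.p6, 0 overlapped the window. The nearest were the pseudogene Gm13806 (98601023 to 98601457) before it and the lncRNA Gm33780 (98702599 to 98710391) after it, 60807 and 35273 bases from the nearest call.

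Before doxycycline the stack was almost free of undeaminated calls, and after 12 h it held more than the libraries around it. In the untreated libraries A, B and C the level was 0.655% (95% Wilson interval 0.332 to 1.29%), 2.60% (1.78 to 3.78%) and 1.44% (0.874 to 2.36%). After 6 h it was 8.36% (6.57 to 10.6%) in library A and 5.97% (4.95 to 7.19%) in library B. After 12 h it was 28.2% (26.4 to 29.99%), 27.5% (25.7 to 29.4%) and 34.3% (31.9 to 36.8%) in libraries A, B and C. The ranges of the 3 times did not overlap, and library C stood above A and B at 12 h. The group means were 1.56% ± 0.978 (SD, n = 3) at 0 h, 7.16% ± 1.68 (n = 2) at 6 h and 30.01% ± 3.76 (n = 3) at 12 h. The 12 h mean thus lay 28.4 percentage points above the 0 h mean and 22.8 points above the 6 h mean, and the 6 h mean 5.60 points above the 0 h mean. With reads of the same strand, positions and calls counted once, 6 h less 0 h was 8.69 points. By construction that count removes mostly deaminated reads from a window with few positions.

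The stack was rich in CpGs for a read of this length, so its level was set against the rest of each library on reads with as many CpGs. Reads with 4 or more CpGs made up 78.8% of the reads in the stack and 14.1% of those elsewhere. At the mix of CpGs per read of the stack, the rest of the libraries had 1.12% ± 0.230 (SD, n = 3) at 0 h, 7.18% ± 0.193 (n = 2) at 6 h and 26.0% ± 2.23 (n = 3) at 12 h. The stack lay above this by 3.86, 2.34 and 5.81 points in the 12 h libraries A, B and C, a mean of 4.00 ± 1.74 points (SD, n = 3), or 1.15 ± 0.0557 times the matched level. At 6 h it lay 1.04 points above in library A and differed by -1.07 points in library B, and at 0 h the 3 differences were -0.203, 1.34 and 0.189 points. All 3 libraries were therefore above their matched level at 12 h, while the signs were mixed at 6 h and 0 h. Whether the difference changed with time was not tested. With alike reads counted once, which by construction removes mostly deaminated reads of the stack, the 12 h difference was 9.54 points. Within the 3 sequencing runs it was 4.19, 3.15 and 6.18 points.

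**Figure D1:**
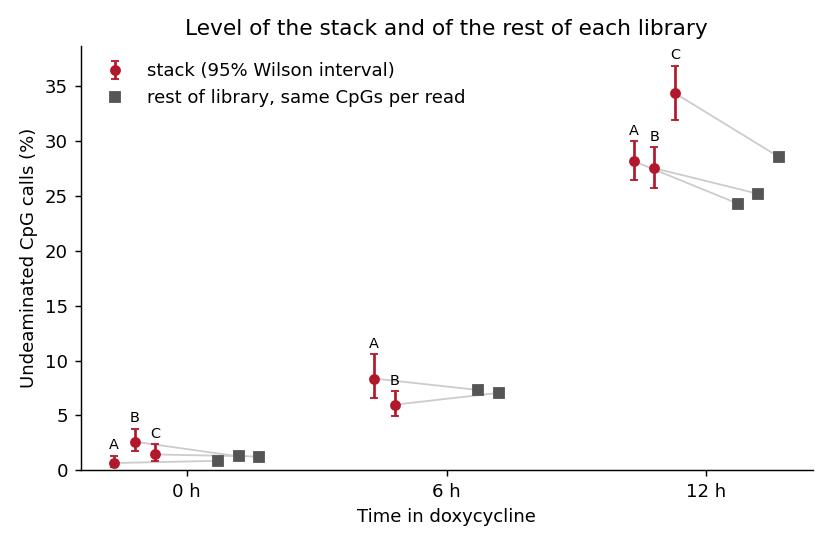
Percentage of undeaminated CpG calls (vertical axis) by time in doxycycline (horizontal axis), with the stack as circles with 95% Wilson intervals and a letter for the replicate, joined to a square for the rest of the same library at the same mix of CpGs per read. At 12 h the 3 circles (27.5 to 34.3%) lie above their squares, and at 6 h 1 circle lies above and 1 below.

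By number of CpGs on the read, the stack was above the rest at 12 h on reads of 4 to 6 CpGs in every library. Reads with 4 CpGs had 31.1% ± 2.02 (SD, n = 3) in the stack and 26.5% ± 1.84 elsewhere, from 561 reads of the stack. Reads with 5 CpGs had 31.7% ± 4.15 in the stack and 25.8% ± 2.62 elsewhere, from 431 reads. Reads with 6 CpGs had 27.5% ± 4.75 in the stack and 24.7% ± 2.36 elsewhere, from 128 reads. In these 3 classes the stack was above the rest in 3 of 3 libraries. The 11 reads with 7 CpGs had 38.4% ± 16.6 in the stack and 23.8% ± 2.68 elsewhere, above the rest in 2 of 3 libraries. Reads with 3 CpGs went the other way, with 25.3% ± 3.32 in the stack and 26.8% ± 2.50 elsewhere, and lay below in 3 of 3 libraries. Reads with 2 CpGs (96 reads) had 22.8% ± 9.68 in the stack, against 26.0% ± 2.43 elsewhere, and of the 19 reads with 1 CpG 3 were undeaminated.

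At 6 h, reads with 3 CpGs or fewer were also the lower ones. They had 4.61% ± 1.33 (SD, n = 2), against 7.59% ± 2.22 on reads with 4 or more. At 12 h the level was 24.4% ± 4.98 (SD, n = 3) on reads with up to 3 CpGs and 30.9% ± 3.53 on reads with more. The gap of 4 or more less 1 to 3 CpGs per read was 6.36, 8.18 and 4.96 points in 12 h libraries A, B and C, 5.49 and 0.461 points at 6 h, and -3.27, 0.878 and 1.62 points at 0 h. It was above 0 in 7 of 8 libraries, and outside the window the same gap was -0.183 ± 0.263 points at 12 h (SD, n = 3, up to 7 CpGs). A two-sided exact permutation test over the 8 libraries, which flips the sign of each gap, gave p = 0.0703 for the stack (mean 3.09 ± 3.78 points, SD, n = 8) and also p = 0.0703 for the stack less the rest. The comparison of 3 or more against exactly 1 CpG rested on 2 to 10 calls with 1 CpG per library. It came to 3.17 ± 12.6 points (SD, n = 8, exact permutation p = 0.5, and 0.5 after Benjamini-Hochberg adjustment over 4 tests). Without untreated library A, where 1 of 4 such calls was undeaminated, it was 7.11 points (exact permutation p = 0.0156), and with alike reads counted once 7.11 points (exact permutation p = 0.188).

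Counted per read, the 12 h stack had fewer reads without any undeaminated call and more reads with at least 2 than the rest. Reads with all calls undeaminated were more frequent in the stack at each of the 3 times. Among reads with 3 to 7 CpGs, 38.7, 38.2 and 26.3% had no undeaminated call in the stack of libraries A, B and C, against 43.2, 42.1 and 37.2% elsewhere at the same numbers of CpGs. The share with at least 2 was 38.5, 35.7 and 42.5% in the stack, against 30.7, 31.7 and 37.2% elsewhere. Fully undeaminated reads made up 3.52, 3.93 and 5.40% in the stack, against 2.42, 2.69 and 3.73% elsewhere. Each of these 3 shares differed in the same direction in 3 of 3 libraries. The shares are not independent of the level, on which the window was chosen, so this is a description without a test. The higher share of fully undeaminated reads lay mainly in reads with 4 CpGs. Over the 3 libraries together, all 4 were undeaminated in 34 of 561 (6.06%) in the stack and in 2.80% elsewhere. With 5 CpGs it was 11 of 431 (2.55%) against 2.00% elsewhere. The stack was lower with 3 CpGs (9 of 208, 4.33%, against 5.32%), with 6 (1 of 128, 0.781%, against 1.12%) and with 7 (0 of 11, against 0.928%).

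After 6 h most marked reads carried a single undeaminated call. Of the 578 reads in the stack 116 had any, and 27 of these had at least 2. The share with at least 2 among reads with 3 to 7 CpGs was 4.91 and 5.07% in the stack of libraries A and B, against 6.83 and 6.98% elsewhere, so it lay below in both, where at 12 h it lay above in all 3. The share without any was 70.6 and 82.1% in the stack and 77.0 and 77.7% elsewhere, higher in 1 library and lower in the other. Fully undeaminated reads were 2 of 163 (1.23%) and 5 of 375 (1.33%) in the stack, against 0.285 and 0.326% elsewhere, so this share lay above in both.

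In untreated cells the few undeaminated calls sat together. The 49 calls of the 3 libraries came from 24 of 771 reads, and 37 of them (75.5%) from 12 reads that had at least 2. Library B had 26 of the 49, of which 22 lay on 7 reads. Fully undeaminated reads of at least 3 CpGs were 1, 2 and 1 in libraries A, B and C, or 0.3802, 0.893 and 0.444% in the stack, against 0.0963, 0.364 and 0.159% elsewhere. The stack thus had the higher share of such reads in all 8 libraries, untreated ones included.

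**Figure D2:**
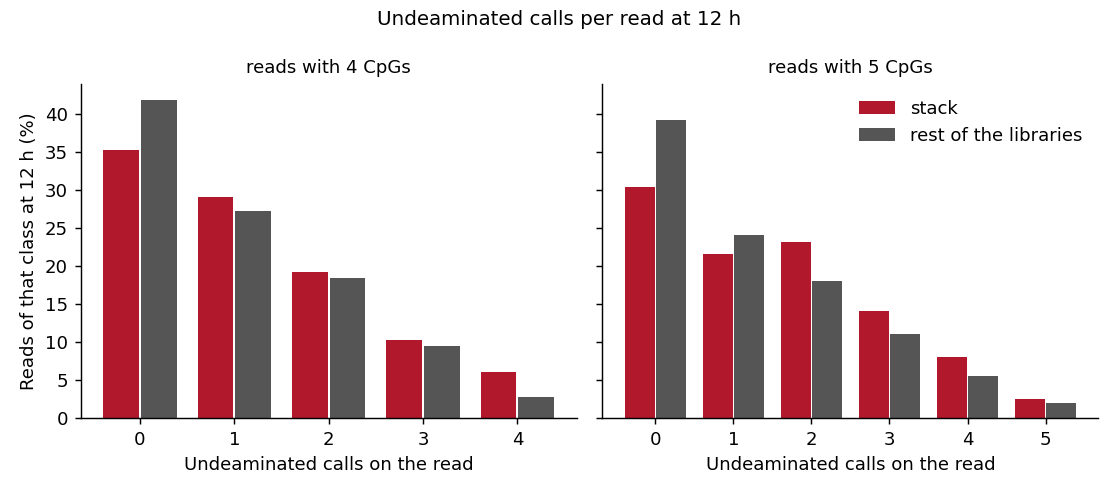
Share of reads at 12 h (vertical axis, percent of the reads of that class over the 3 libraries) by number of undeaminated calls on the read (horizontal axis), for reads with 4 CpGs (left panel) and 5 CpGs (right panel), with the stack as the left bar and the rest of the libraries as the right bar of each pair. Bars for 0 undeaminated calls are lower in the stack (35.3% and 30.4%) than in the rest (41.9% and 39.3%), and bars for all calls undeaminated are higher.

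Neighbouring calls on a read were alike more often than independent calls of the same level would be. The excess of equal neighbours was 10.8 ± 0.789 points (SD, n = 3) in the stack at 12 h and 9.204 ± 0.876 points elsewhere, and 2.91 ± 0.721 points (n = 2) in the stack at 6 h and 2.73 ± 0.0633 points elsewhere. The stack exceeded the rest in 3 of the 5 doxycycline libraries, by 1.03 ± 1.32 points on average (SD, n = 5, two-sided exact permutation p = 0.25, where 0.0625 is the smallest that 5 libraries allow, and 0.333 after adjustment over 4 tests). With alike reads counted once this difference was -0.108 points (exact permutation p = 0.875). With the expectation taken from the levels of both positions, the excess in the stack at 12 h was 10.5 ± 0.614 points. Neighbours in the stack were closer, with a median of 18 bases against 24 elsewhere in the 12 h libraries. For neighbours 10 to 19 bases apart the 12 h excess was 14.2 ± 1.67 points in the stack (2394 pairs) and 9.65 ± 0.610 points elsewhere. For those 20 to 39 bases apart it was 6.53 ± 1.14 points in the stack (729 pairs) and 8.39 ± 0.526 points elsewhere, so the stack was lower there. For those 40 to 79 bases apart it was 8.92 ± 0.856 points in the stack (1268 pairs) and 6.68 ± 0.596 points elsewhere. For those 2 to 9 bases apart it was 6.82 ± 5.37 points in the stack (185 pairs) and 11.02 ± 1.32 points elsewhere. The sign of the difference therefore followed no single order of distance.

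Over the stack as a whole, the top strand carried more undeaminated calls than the bottom strand at 12 h, but not in every stretch. Strand is that of the reference chromosome. In 12 h library A the top strand had 29.8% (337 of 1130) and the bottom strand 26.8% (350 of 1308). In library B it was 30.3% (334 of 1104) on the top and 24.8% (275 of 1109) on the bottom, and in library C 38.2% (251 of 657) on the top and 31.0% (239 of 770) on the bottom. The Wilson intervals of the strands did not overlap in libraries B and C and overlapped in library A. The 12 h gap averaged 5.23 ± 2.06 points (SD, n = 3). At 6 h the gaps were -0.0865 and 1.77 points in libraries A and B, and at 0 h they were 0.571, 2.44 and -0.264 points in libraries A, B and C.

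Over all 8 libraries the top strand was higher in 6, by a mean of 2.51 ± 2.66 points (SD, two-sided exact permutation p = 0.0312 by flipping the sign of each library's gap, but 0.125 after adjustment over the 4 tests of the stack). The unadjusted p was 0.0625 when any of 6 libraries was left out (untreated A or B, 6 h B, or any of the 12 h libraries), with a mean gap of 1.85 points without 12 h C. Outside the window strand can be read only on reads with 2 or more CpGs. On those, the strands of the 12 h libraries differed by 0.0113 ± 0.229 points. On reads with 2 or more CpGs the stack's mean gap over the 8 libraries was 2.46 points (exact permutation p = 0.0312). Within CpGs called on both strands of the same library the 12 h gap was 6.54 ± 2.98 points, and over the 8 libraries 3.18 points (above 0 in 7 of 8, exact permutation p = 0.0391). In the last stretch alone the gap over all calls was 3.64 points over the 8 libraries (exact permutation p = 0.0234). The pooled 12 h calls of the first stretch and of the stretch from 98664999 to 98665193 went the other way, with the bottom strand higher. In the latter, 98665063 had 2 of 23 (8.70%) on the top strand and 98665064 had 10 of 26 (38.5%) on the bottom strand. Without fully undeaminated reads of 3 or more CpGs the mean gap of the whole stack was 1.495 points (exact permutation p = 0.0312). With 1 call per read, the one at the lowest position, it was 4.43 points (exact permutation p = 0.00781). That call is the last listed on a top-strand read and the first on a bottom-strand read, so the strands were not thinned alike. The strands also differed in where they were read, since 69.6% of calls in the first stretch and 50.3% in the last lay on the bottom strand.

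**Figure D3:**
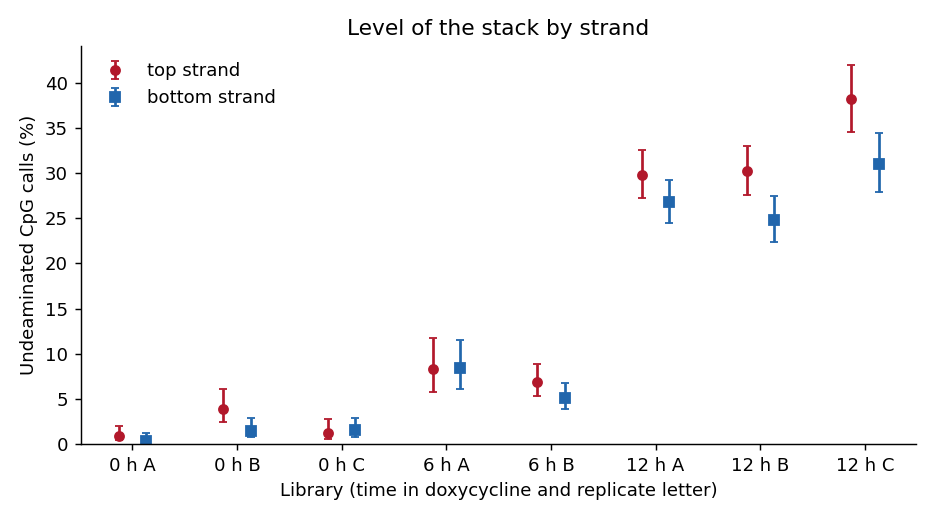
Percentage of undeaminated calls in the stack (vertical axis) in each library (horizontal axis, time in doxycycline and replicate letter), with top-strand calls as circles and bottom-strand calls as squares, each with its 95% Wilson interval. The circle lies above the square in each 12 h library (29.8 and 26.8%, 30.3 and 24.8%, 38.2 and 31.0%).

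Single cytosines differed widely after 12 h. At least 10 calls in each 12 h library were held by 40 positions, with 83.2% of all calls of the stack. Their mean 12 h level ran from 9.70% to 50.2%, with a median of 31.4%. The pooled 12 h level of the stack was 29.4%, and the Wilson interval of the pooled calls lay above it at 10 of the 40 positions (25.0%) and below it at 7 (17.5%). In 38 of the 40 positions (95.0%) all 12 h libraries were above all 0 h libraries, and 16 of the 40 had no undeaminated call at 0 h.

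The highest 5 of these positions were 98666606 on the top strand with 50.2% ± 10.7 (SD, n = 3), 98666770 on the top strand with 49.8% ± 3.04, 98662351 on the bottom strand with 48.5% ± 9.37, 98667195 on the top strand with 45.8% ± 6.87 and 98662281 on the bottom strand with 45.4% ± 9.33. Position 98666606 had 42.9, 45.2 and 62.5% in libraries A, B and C, and position 98666770 had 48.1, 48.0 and 53.3%. The lowest was 98667311 on the bottom strand, with 9.52, 6.25 and 13.3% and a mean of 9.70% ± 3.55. Next came the paired cytosines of 1 CpG, 98666683 on the bottom strand with 13.2% ± 5.65 and 98666682 on the top strand with 14.0% ± 9.52, then 98667208 with 19.4% ± 4.36 and 98667092 with 19.6% ± 5.66, both on the bottom strand. Of the lowest 5, 4 lay on the bottom strand, and of the highest 5, 2 did, where 21 of the 40 positions were on the bottom strand.

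The pooled level of the highest 5 also lay above that of the lowest 5 at 6 h, in libraries not used to rank the positions. The order did not hold at each position. Most undeaminated 6 h calls of the highest 5 lay at 98667195 (10 of 85, 11.8%) and 98662351 (6 of 38, 15.8%). The others were lower, with 1 of 32 (3.13%) at 98666606, 1 of 24 (4.17%) at 98666770 and 2 of 38 (5.26%) at 98662281. Of the lowest 5, 98667092 had 3 of 59 (5.08%), above 98666606 and 98666770. The highest 5 together had 11.1 and 8.28% in the 6 h libraries A and B, against 3.49 and 2.12% for the lowest 5, gaps of 7.62 and 6.16 points. At 12 h these gaps were 25.3, 27.0 and 38.1 points by selection, and at 0 h 0.00, -0.980 and 0.363 points. Across the 40 positions the 12 h levels of pairs of libraries correlated with Pearson's r of 0.625 (A and B), 0.491 (A and C) and 0.555 (B and C), and the 12 h mean with the pooled 6 h level with r = 0.539 and Spearman's rho = 0.497. These are descriptions across positions, which share reads, libraries and depth.

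The deepest positions were 98667196 (606 calls over the 8 libraries), 98667168 (577), 98667208 (569) and 98667150 (525) on the bottom strand and 98667149 (510) on the top strand. They lay close together in the last stretch and differed at 12 h: 103 of 287 calls were undeaminated at 98667196 (35.9%, interval 30.6 to 41.6%), 56 of 275 at 98667168 (20.4%, 16.0 to 25.5%), 51 of 263 at 98667208 (19.4%, 15.1 to 24.6%), 58 of 247 at 98667150 (23.5%, 18.6 to 29.1%) and 74 of 232 at 98667149 (31.9%, 26.2 to 38.1%). The interval of 98667196 did not overlap those of the other 3 bottom-strand positions.

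**Figure D4:**
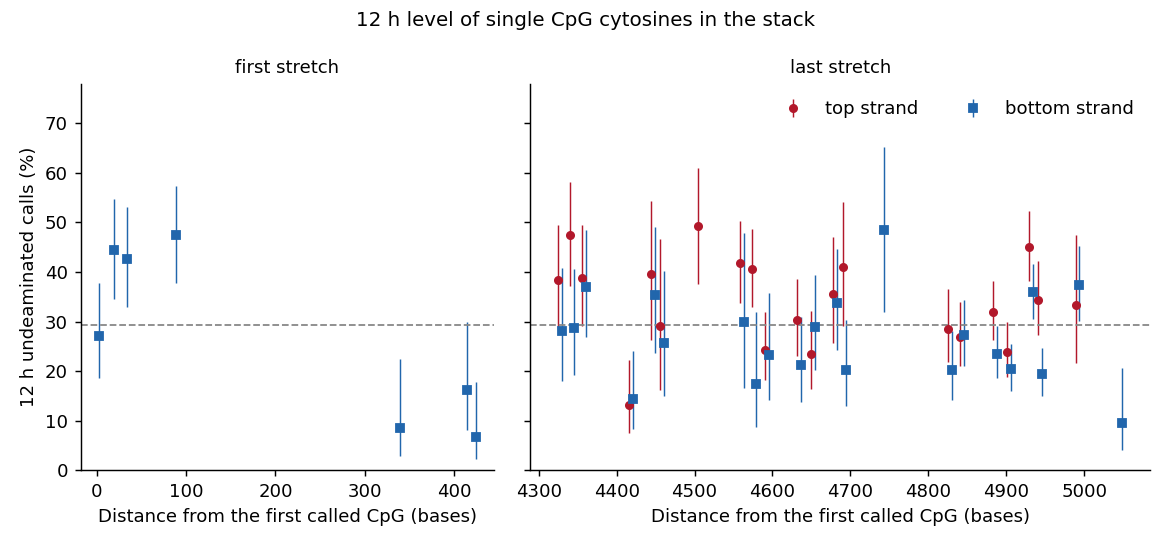
Pooled 12 h percentage of undeaminated calls (vertical axis) of each cytosine with at least 30 calls at 12 h, by distance in bases from the first called CpG (horizontal axis), in the first stretch (left) and the last stretch (right), with top-strand cytosines as circles, bottom-strand cytosines as squares and 95% Wilson intervals as bars. The dashed line is the pooled level of the stack, 29.4%, and the points range from well below it, as at 98666682 (13.3%), to well above it, as at 98666770 (49.3%).

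The cytosines of the 2 strands of a CpG tended only loosely to be high or low together. At 12 h, 20 CpGs had at least 30 calls on each strand, and the top strand was higher at 16 of them. Pearson's r between strands was 0.482 and Spearman's rho 0.361 over these 20 CpGs, a description across sites of the same libraries. At CpG 98666682/98666683 both strands were low, with 11 of 83 (13.3%) on the top and 11 of 76 (14.5%) on the bottom, and at 98667195/98667196 both were high, with 83 of 184 (45.1%) and 103 of 287 (35.9%). The intervals of the strands were apart at 2 CpGs. At 98666840/98666841 the top strand had 58 of 143 (40.6%) and the bottom strand 7 of 40 (17.5%), and at 98667207/98667208 the top strand had 53 of 154 (34.4%) and the bottom strand 51 of 263 (19.4%).

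CpGs 251 bases apart had closer levels than other pairs, while those 234 or 485 bases apart were nearer to other pairs. Among cytosines with at least 30 calls at 12 h, 14 pairs on the same strand lay 251 bases apart, and the median difference of their 12 h levels was 3.41 points. The 12 pairs 234 bases apart had a median difference of 8.56 points, and the 12 pairs 485 bases apart 9.12 points. For the 578 other pairs on the same strand it was 10.6 points. These are descriptions, in which pairs share positions with each other and reads of 1 copy may align to another. Apart from the pair at 98662351, those 251 bases apart all lay in the last stretch. The other pairs also joined the first stretch to the last, and the sets were not matched for depth. At 251 bases, 98666916 (23.4%, 25 of 107) and 98667167 (23.9%, 55 of 230) were close on the top strand, as were 98666957 (20.3%, 16 of 79) and 98667208 (19.4%, 51 of 263) on the bottom strand. The widest difference at 251 bases, 38.9 points, was that of 98662351 (47.4%, 46 of 97) and 98662602 (8.57%, 3 of 35) in the first stretch. At 234 bases the differences ran from 1.54 to 14.5 points, and 5 of the 12 were above the median of other pairs. The widest was that of 98666622 (38.8%, 33 of 85) and 98666856 (24.3%, 36 of 148) on the top strand.

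The first and last stretches had close means. At 12 h the first had 31.9% ± 6.75 (SD, n = 3) and the last 29.96% ± 3.50, 5.60 ± 4.54 and 4.03 ± 1.69 points above the matched level of the libraries. The stretch from 98664999 to 98665193 had 24.2% ± 3.93, with 160 calls at 12 h, and differed from its matched level by -2.10 ± 2.60 points. The stretch from 98663907 to 98664039 had 10 undeaminated calls of 44 and differed by -6.68 ± 20.6 points. At 0 h the first stretch had 3 undeaminated calls of 400 and the last 43 of 2776.

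Within each time the stack took a smaller share of the calls in larger libraries. It was 0.774, 1.15 and 1.02% of all calls in untreated libraries A, B and C, 0.989 and 0.592% in 6 h libraries A and B, and 0.537, 0.455 and 0.741% in 12 h libraries A, B and C. Means were 0.578% ± 0.147 (SD, n = 3) at 12 h and 0.981% ± 0.190 at 0 h. The window was chosen on its number of calls, so its share is a description without a test. With alike reads counted once the share was 0.0497 points higher at 12 h than at 0 h. Library size moved with the groups, from 75023 to 485941 calls, with the largest libraries at 12 h. The number of library calls is also the divisor of the share. The part of library size in the difference between times was not tested.

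**Figure D5:**
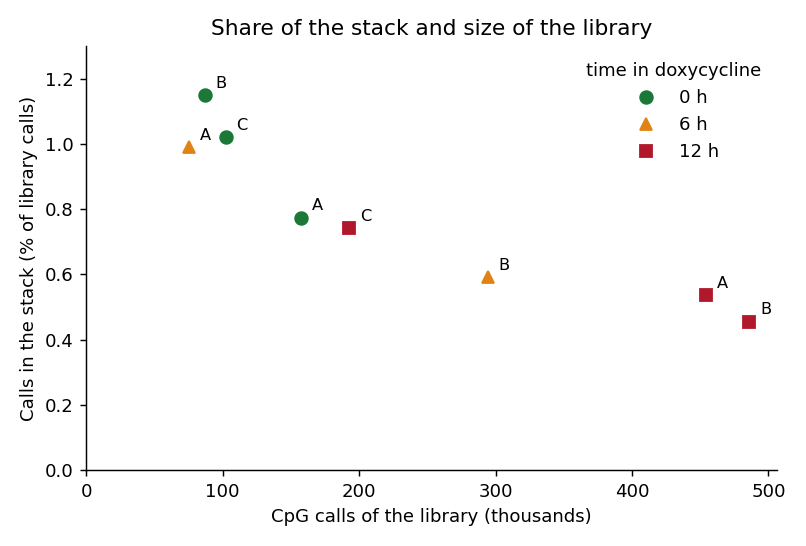
Calls in the stack as a percentage of all calls of the library (vertical axis) against the number of calls of the library (horizontal axis, in units of 1000 calls), with 1 point per library, a symbol for the time in doxycycline and a letter for the replicate. The share is lowest, 0.455%, in 12 h library B, which has the most calls (485941), and highest, 1.15%, in untreated library B, with 87030 calls.

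Reads of the stack could not be told from duplicates by their calls. Of its reads with 4 to 7 CpGs, 39.6 to 86.1% had the same strand, positions and calls as another read of their library, against 0.472 to 1.01% elsewhere, in a window where only 130 positions were read. The share was lowest in the 12 h libraries (39.6 to 50.4%) and highest in the untreated ones (80.6 to 86.1%), where nearly all calls were deaminated.

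Against the 17 other windows of 10 kb on the chromosomes with at least 200 calls (high-copy windows), the stack had the most calls and the fifth highest difference from the matched 12 h level, 4.00 points. The 4 windows above it held 218 to 459 calls. Next in number of calls was a window on chromosome 17 (39840001 to 39850000) with 9247, whose 12 h level of 4.78% differed from its matched level by -4.77 points. A window on chromosome 9 (3000001 to 3010000) with 1895 calls had 26.4%, 0.296 points above. These differences are given as a description.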

How the data were processed

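CpG calls of 8 libraries were used. Per the file headers, the deposited files were written by the Bismark methylation extractor 0.22.3, and each CpG cytosine of a read has a letter for undeaminated or deaminated, deposited as such by the authors. Bismark 0.22.3 with GRCm38, and Trim Galore, are named in the submitters' processing notes. Not given in the sources used here are alignment settings, the treatment of reads that match several places and duplicate removal, and each bears on a repeated region. Inputs were 10 ng of DNA in fragments of about 300 bp, per the labels' protocols, and read names show 3 runs.

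Groups and letters came from the titles. Calls at 98660001 to 98670000 of chromosome 2 were kept, and CpGs per read are the calls sharing a read name. Libraries held 742 to 2439 calls in the stack. Wilson intervals (95%) cover counting error only, and calls on 1 read are not independent. The matched level weights the level outside the window in 7 classes of CpGs per read (1, 2, 3, 4 to 5, 6 to 7, 8 to 10, 11 or more) by the calls of the stack. Strand was read from the order of calls on a read: descending positions were taken as top strand, because 58 of 61 such positions in the window were followed at the next base by an ascending one and 0 the other way round. Tests were two-sided exact permutation tests over libraries, in Python 3.11.15 with numpy 2.4.6, pandas 2.3.3 and scipy 1.17.1, tested on simulated data, with Benjamini-Hochberg adjustment over 4 tests and a threshold of 0.05. Of the 4, that on the share of calls, is counted in the adjustment but not reported as a test, since the window was chosen on its calls. Position rule: among positions with at least 10 calls in each 12 h library, the 5 highest, the 5 lowest, and the 5 with the most calls. The window, rules and tests were chosen with earlier results of these data known. Pairs at repeat distances, the strand gap within CpGs, the gap of 4 or more against 1 to 3 CpGs, and the stretches were chosen after seeing the data. CpG distances and single CpGs singled out by strand or repeat distance were chosen after their values were seen.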

Additional observations from a re-analysis of the deposited data

How the results depend on the processing

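Of 126 recomputed values, 108 were counted as unchanged. For results described without a test, that means the same direction and a size within 1 SD of the libraries. On the log odds scale only the direction was compared. For tested results it means the same direction and side of the threshold, at any size. Some values could not change, since the library left out did not enter the result. Pair concordance over 5 libraries could not pass the threshold in any case. Counting reads with the same strand, positions and calls once moved the 6 h less 0 h level to 8.69 points and the 12 h difference from the matched level to 9.54 points, and turned round the pair concordance (-0.108 points, exact permutation p = 0.875) and the share of calls at 12 h less 0 h (0.0497 points). By construction this alternative removes mostly deaminated reads from a window with few positions. In sequencing run 3 alone, 12 h less 6 h was 27.1 points and the difference from the matched level 6.18 points. Without standardising for CpGs per read that difference was 5.90 points. The range of position levels, 40.5 points, was 33.4 points with 1 call per read, 29.1 points with at least 20 calls and 55.2 points with at least 5. The strand gap was 1.495 points without fully undeaminated reads. It was 4.43 points with 1 call per read, kept at the lowest position, which does not thin the strands alike. The strand gap in the doxycycline libraries only was 3.47 points (exact permutation p = 0.125). Cause was not tested for these.

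Leaving out each library in turn gave 26.3 to 29.7 points for 12 h less 0 h, 4.41 to 6.79 for 6 h less 0 h, 20.7 to 24.1 for 12 h less 6 h, 3.10 to 4.83 for the difference from the matched level, 1.85 to 2.91 for the strand gap, 0.988 to 7.11 for the gap between 3 or more and 1 CpG per read, 0.623 to 1.38 for pair concordance, -0.507 to -0.319 for the share and 40.5 to 45.3 for the range of position levels. With the replicate block, the level differences were 28.4, 6.65 and 21.8 points and the share differed by -0.403 points. Libraries with the same letter correlated by 0.0003 to 0.0650 over 1204 windows of 1 Mb. Libraries with different letters were not set beside them, and windows needed only 20 calls. These values therefore cannot decide whether letters mark pairing. The strand gap on reads with 1 CpG was not computed as a test, because some libraries had no such call on 1 strand. With 742 to 2439 calls a library, levels at 0 h rest on 8 to 26 undeaminated calls.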
